A study of Homo sapiens with 8 samples.

Results

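Neurons build their microtubules from a particular set of tubulin isotypes and bind them with a particular set of proteins, and 10 genes of that set were examined here in undifferentiated human embryonic stem cells (hESCs). They are the beta-tubulins TUBB3, TUBB2A, TUBB2B and TUBB4A, the alpha-tubulin TUBA1A, the microtubule-associated proteins MAP1A, MAP1B and MAP2, doublecortin (DCX) and stathmin 1 (STMN1). The set was chosen with earlier results of these data known, so its counts beside those of all genes are descriptive. Its rows were found by gene symbol, and all 10 were among the 18679 genes present in both expression tables of the study. Those tables list 19472 and 19551 genes. The study sequenced poly-A RNA of H9, an established hESC line, to ask how cell crowding and the transcription factor ETV4 change gene expression before differentiation. In the crowding experiment, 2 libraries labelled crowded came from cells confined to drops of Matrigel until they covered the adhesive area, and 2 libraries labelled small came from the low-density state. In the knockdown experiment, 2 libraries labelled ETV4 KD came from cells with a short hairpin RNA against ETV4 and 2 libraries labelled Ctrl came from cells with a control hairpin. All cells were kept on Matrigel in mTeSR1 or TeSR-E8 medium, and no neural differentiation was induced. The study says in general terms that its experiments were repeated independently, but which ETV4 hairpin was sequenced, and whether these replicate libraries came from separate cultures, are not given in the sources used here, so p-values measure the spread between these libraries, which may be technical. In such bulk RNA, a shift in the share of cells that express a gene and a shift in RNA per cell cannot be told apart.

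Microtubules are polymers of alpha- and beta-tubulin dimers, and the isotypes differ mainly in an acidic carboxy-terminal tail that extends from the surface of the polymer. TUBB3 is the isotype most closely tied to neurons and is widely used to mark them, while MAP1A, MAP1B, MAP2 and DCX bind and stabilise microtubules in axons, dendrites and migrating neurons. STMN1 acts in the opposite way, by sequestering tubulin dimers and promoting disassembly, and is abundant in dividing cells as well as in neurons.

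Reads can be assigned to a beta-tubulin gene only where the genes differ, so the ends of the 4 coding sequences, which encode the isotype-specific tails, are shown here. Each run starts at coding base 1273, ends at the last base before the stop codon and lies in the last coding exon (GRCh37, written on the coding strand). Capitals mark bases that do not align to an identical base of TUBB2B. Bases of TUBB2B that an isotype lacks are not marked.
TUBB2B (chr6:3224988-3225050, minus strand): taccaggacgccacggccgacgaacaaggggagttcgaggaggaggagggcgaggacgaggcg
TUBB2A (chr6:3154100-3154162, minus strand): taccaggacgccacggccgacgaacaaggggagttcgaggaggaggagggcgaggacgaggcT
TUBB4A (chr19:6495178-6495237, minus strand): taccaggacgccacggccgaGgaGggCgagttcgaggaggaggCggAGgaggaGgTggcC
TUBB3 (chr16:90002132-90002209, plus strand): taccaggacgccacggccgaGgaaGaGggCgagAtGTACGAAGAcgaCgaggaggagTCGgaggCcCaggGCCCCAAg
Bases so marked numbered 1 of 63 in TUBB2A, 9 of 60 in TUBB4A and 27 of 78 in TUBB3, against an end of 63 bases in TUBB2B. Over the 1272 coding bases before this end, TUBB2A and TUBB2B were 98.2% identical with 23 differing bases. TUBB3 was 89.2% identical to TUBB2A and 88.9% to TUBB2B over them.
Of the 100-base windows along the reference transcript, 100 bases being the length of 1 read, 55.6% of TUBB2A and 48.7% of TUBB2B occur letter for letter in a transcript of another locus, mostly in each other. The corresponding share was 5.35% for TUBB3, 18.1% for TUBA1A, mostly in TUBA1B, and 0 for TUBB4A, MAP1A, MAP1B, MAP2, DCX and STMN1. With the annotated entries that overlap it counted as well, among them TUBA1C, the TUBA1A share was 21.5%. The reads were paired, so a fragment can be placed if either mate lies outside shared sequence. The share of fragments that could not be placed was not measured. The values of TUBB2A and TUBB2B are thus uncertain as separate genes, to an unmeasured degree. Another annotated gene entry overlaps TUBB3 on the same strand and contains 92.5% of its windows, so reads of the 2 entries also cannot be told apart. For TUBB4A, 16.3% of windows occur in 2 overlapping entries on the other strand, from which only counting by strand would separate its reads.

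The libraries held 50359703 to 62410168 counts on genes. The members' own counts ranged from 164 for MAP2 in Ctrl 2 to 44238 for TUBB2B in small 2. Genes were called changed when the adjusted p was under 0.05 and the log2 fold change lay beyond 0.5 in either direction, the study's thresholds, by edgeR's quasi-likelihood test over 17672 genes for crowding and 17879 for ETV4 KD. By that rule crowding raised 10.7% and lowered 5.47% of the genes tested, 16.1% in all, and ETV4 KD raised 5.88% and lowered 7.10%, 13.0% in all. ETV4 itself, the targeted gene, was measured at 90.8 and 95.1 FPKM (fragments scaled by transcript length and by sequencing depth) in Ctrl and at 45.6 and 40.9 in ETV4 KD, a log2 fold change of −1.15 ± 0.073 (SE, adjusted p = 1.60e-04). In the crowding experiment ETV4 was at 73.2 and 72.6 FPKM in small and at 54.2 and 53.9 in crowded, a log2 fold change of −0.49 ± 0.056 (adjusted p = 9.42e-07).

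Crowding lowered 3 of the 10 genes, TUBB3, MAP1A and MAP2, and raised 0 past both thresholds (0 with DESeq2 as well). At an unadjusted p under 0.05 by edgeR, all 10 differed after crowding, 3 higher and 7 lower. The share of all genes at that unadjusted p was not computed. ETV4 KD raised 3 past both thresholds, TUBB3, MAP1A and MAP1B, and lowered 1, DCX. Thus TUBB3 and MAP1A passed both thresholds in each experiment, in opposite directions. The share of all genes that did so was not computed, so this count is descriptive. The median log2 fold change of the 10 genes was −0.39 after crowding, against 0.003 over all genes tested, and 0.14 after ETV4 KD, against −0.001. By the adjusted p alone, all 10 genes differed after crowding, beside 39.7% of all genes, and 4 of 10 differed after ETV4 KD, beside 21.5%. Over the other settings tried these counts were 8 to 10 after crowding, where DCX (adjusted p of 0.0224 to 0.235) and MAP2 (1.53e-06 to 0.0552) missed it in some, and 3 to 7 after ETV4 KD. The FPKM values of the groups did not overlap for 10 of 10 genes in the crowding experiment, beside 70.2% of all genes, and for 8 of 10 in the knockdown experiment, beside 63.3%. The plot of FPKM by library shows these levels and the plot of responses shows the fold changes with their errors.

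**Figure D1:**
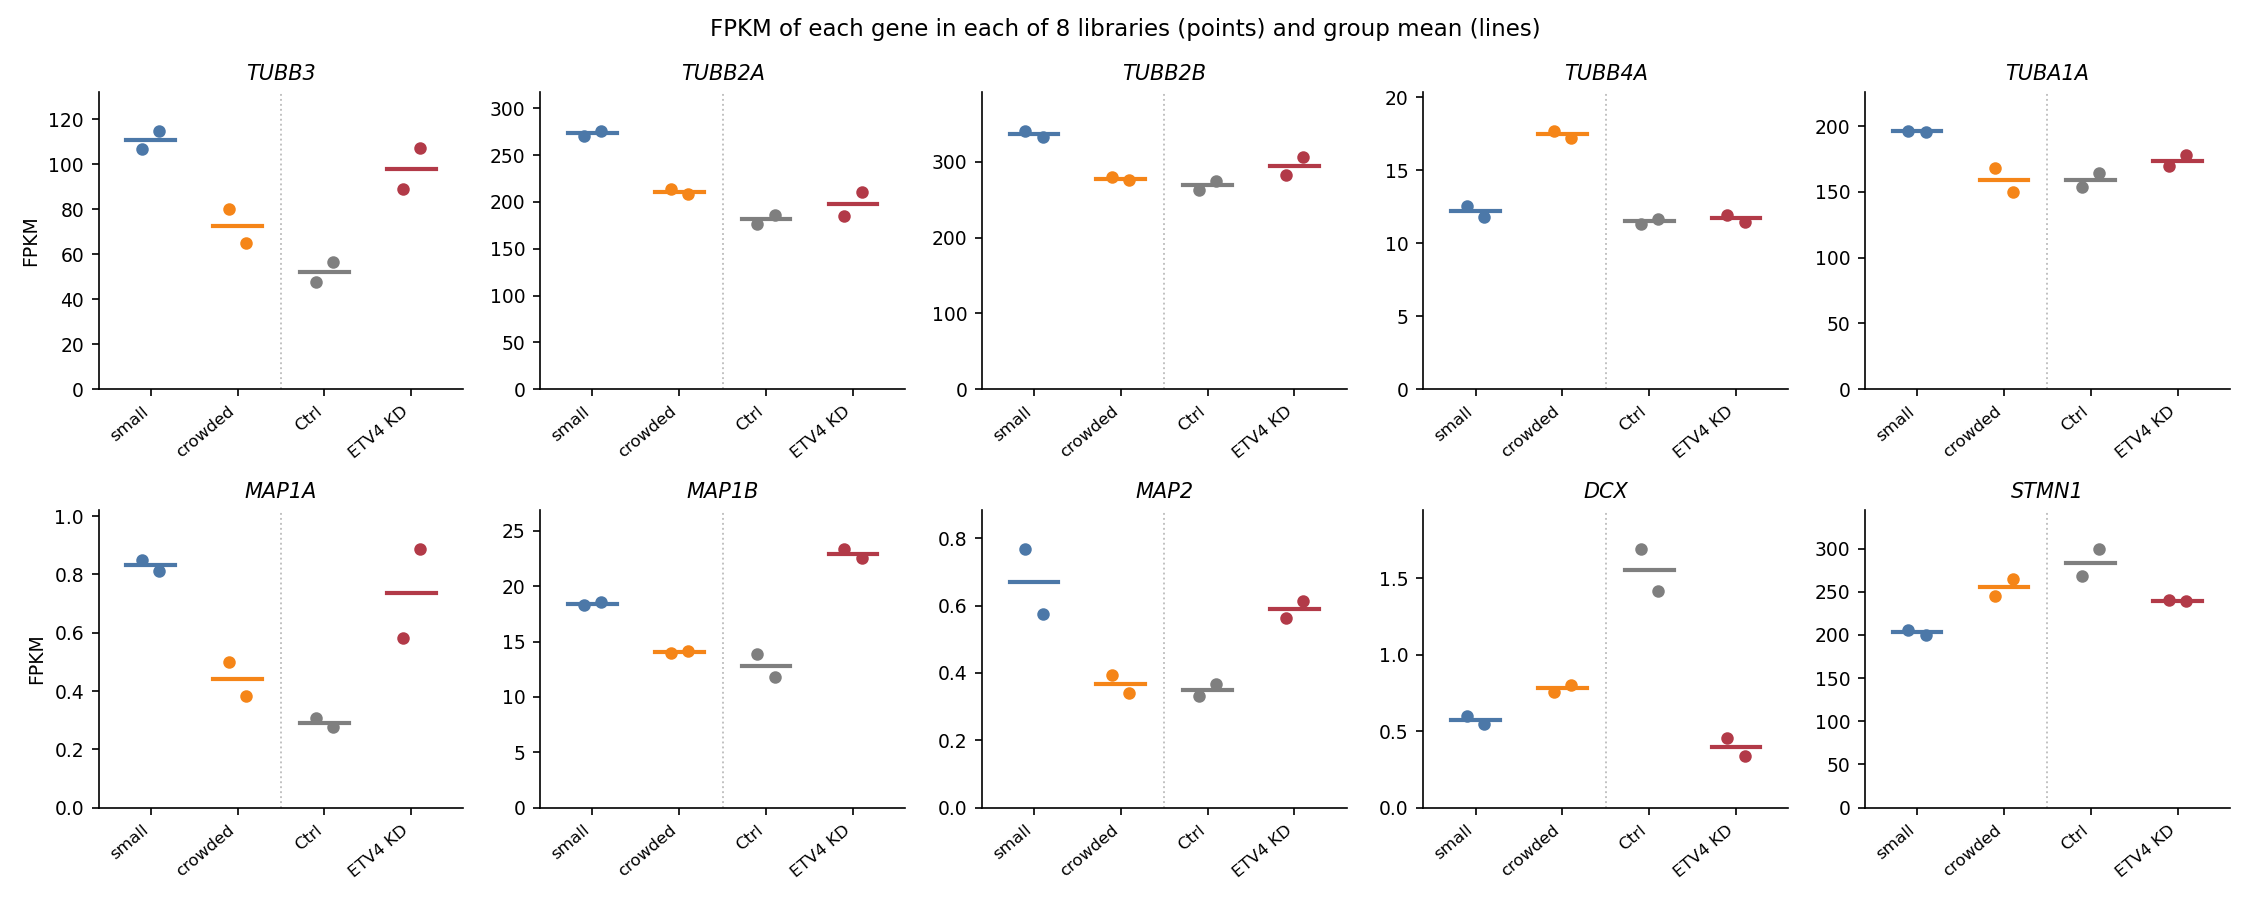
FPKM (linear axes from 0) of each of the 10 genes in the 8 libraries; points are libraries, horizontal lines are means of the 2 libraries of a group, and the dotted line separates the 2 experiments, whose tables were normalized separately. TUBB3, MAP1A, MAP1B and MAP2 were lower in crowded than in small and higher in ETV4 KD than in Ctrl, and DCX ran the other way.

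**Figure D2:**
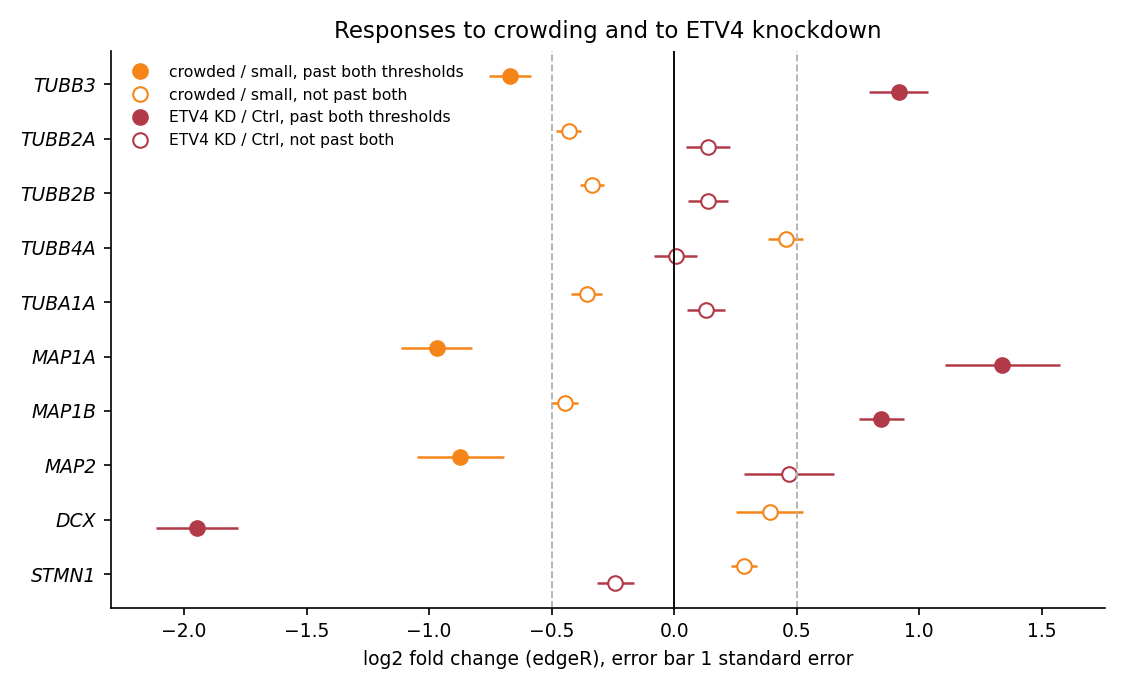
The log2 fold change of each gene from edgeR in crowded over small (orange) and in ETV4 KD over Ctrl (red), with 1 standard error and 2 libraries in each group. Filled points passed the adjusted p of 0.05 and the absolute log2 fold change of 0.5 (dashed lines), as TUBB3 and MAP1A did in both experiments and on opposite sides of 0.

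TUBB3, the neuronal class of beta-tubulin, lies at chr16:89987800-90005169 on the plus strand. Its level was 107 and 115 FPKM in the small libraries and 80.1 and 65.0 in the crowded libraries. Both crowded libraries lay below both small libraries, a log2 fold change of −0.67 ± 0.087 (adjusted p = 9.20e-05), or 1.59-fold lower. With the hairpins, TUBB3 was at 47.8 and 56.8 FPKM in Ctrl and at 89.0 and 107 in ETV4 KD. Here the knockdown libraries were the higher ones, with a log2 fold change of 0.92 ± 0.12 (adjusted p = 0.0027), or 1.89-fold. The 2 starting levels were far apart, 111 ± 5.61 FPKM in small and 52.3 ± 6.35 in Ctrl (SD, n = 2 each), but the tables were made separately and the cells of Ctrl also carry a hairpin vector, so these levels were not tested against each other.

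TUBB2A and TUBB2B, a pair of beta-tubulins abundant in the brain, lie on chromosome 6 at chr6:3153731-3157778 and chr6:3223558-3231964, both on the minus strand. TUBB2A was at 271 and 276 FPKM in small and at 213 and 209 in crowded, a log2 fold change of −0.43 ± 0.050 (adjusted p = 1.04e-06). TUBB2B was at 341 and 333 FPKM in small and at 280 and 276 in crowded, a log2 fold change of −0.33 ± 0.048 (adjusted p = 1.27e-05). Both genes were thus lower in crowded hESCs by an amount that exceeded the replicate spread but not the fold threshold. After ETV4 KD, TUBB2A was at 185 and 211 FPKM against 177 and 186 in Ctrl, and these groups overlapped (log2 fold change 0.14 ± 0.091, adjusted p = 0.309). TUBB2B was at 283 and 307 FPKM in ETV4 KD against 263 and 275 in Ctrl (0.14 ± 0.080, adjusted p = 0.247). Neither gene passed the test after the knockdown, although both did so without ETV4 KD replicate 1 (adjusted p = 0.017 for TUBB2A and 0.0284 for TUBB2B), with changes still within the fold threshold. Since reads of the 2 genes are hard to separate, as their shared ends above show, the 2 pairs of values are not independent.

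TUBB4A, a beta-tubulin of the mature brain and of myelinating cells, lies at chr19:6494330-6502859 on the minus strand and had the lowest level of the 4 beta-tubulins. It was at 12.6 and 11.8 FPKM in small and at 17.7 and 17.2 in crowded. It was the only beta-tubulin among the 4 that was higher in crowded hESCs, with a log2 fold change of 0.46 ± 0.071 (adjusted p = 3.49e-05), just inside the fold threshold. The change lay beyond that threshold in 4 of the other settings tried, at 0.50 to 0.52. TUBB4A was at 11.3 and 11.7 FPKM in Ctrl and at 11.9 and 11.5 in ETV4 KD, which overlapped (log2 fold change 0.01 ± 0.088, adjusted p = 0.965).

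Because FPKM is scaled by transcript length, the isotypes can be set against each other within a library, here as shares of the summed FPKM of the 8 beta-tubulin genes in the tables. That sum was 2079 and 2080 FPKM in small, 2002 and 1903 in crowded, 1769 and 1862 in Ctrl and 1659 and 1745 in ETV4 KD. The most abundant isotype in all 8 libraries was TUBB, the broadly expressed beta-tubulin of dividing cells, named here as the largest part of the sum. TUBB took 51.3% ± 0.092 of the sum in small and 58.2% ± 0.13 in crowded, and 59.6% ± 0.46 in Ctrl and 52.4% ± 2.00 in ETV4 KD (SD, n = 2 each). Its own log2 fold change was 0.03 (adjusted p = 0.537) after crowding and −0.27 (adjusted p = 0.0223) after ETV4 KD. TUBB3 made up 5.34% ± 0.27 of the beta-tubulin sum in small and 3.71% ± 0.41 in crowded. In the other experiment the TUBB3 share was 2.87% ± 0.25 in Ctrl and 5.75% ± 0.55 in ETV4 KD. The TUBB3 share thus moved in opposite directions in the 2 experiments, and by more than its spread in each. The TUBB2A share was 13.1% ± 0.18 in small and 10.8% ± 0.22 in crowded, and the TUBB2B share was 16.2% ± 0.30 and 14.2% ± 0.39. Between Ctrl and ETV4 KD the TUBB2A share was 9.99% ± 0.019 and 11.6% ± 0.66, and the TUBB2B share was 14.8% ± 0.069 and 17.3% ± 0.38. TUBB4A held under 1% of the sum in every library, 0.586% ± 0.025 in small and 0.894% ± 0.014 in crowded. With 2 libraries against 2, an exact permutation test of a share cannot go below p = 0.33, so the shares are given as descriptions. Among the 4 member beta-tubulins alone, the shares of TUBB2A, TUBB2B and TUBB4A moved the other way in some comparisons.

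**Figure D3:**
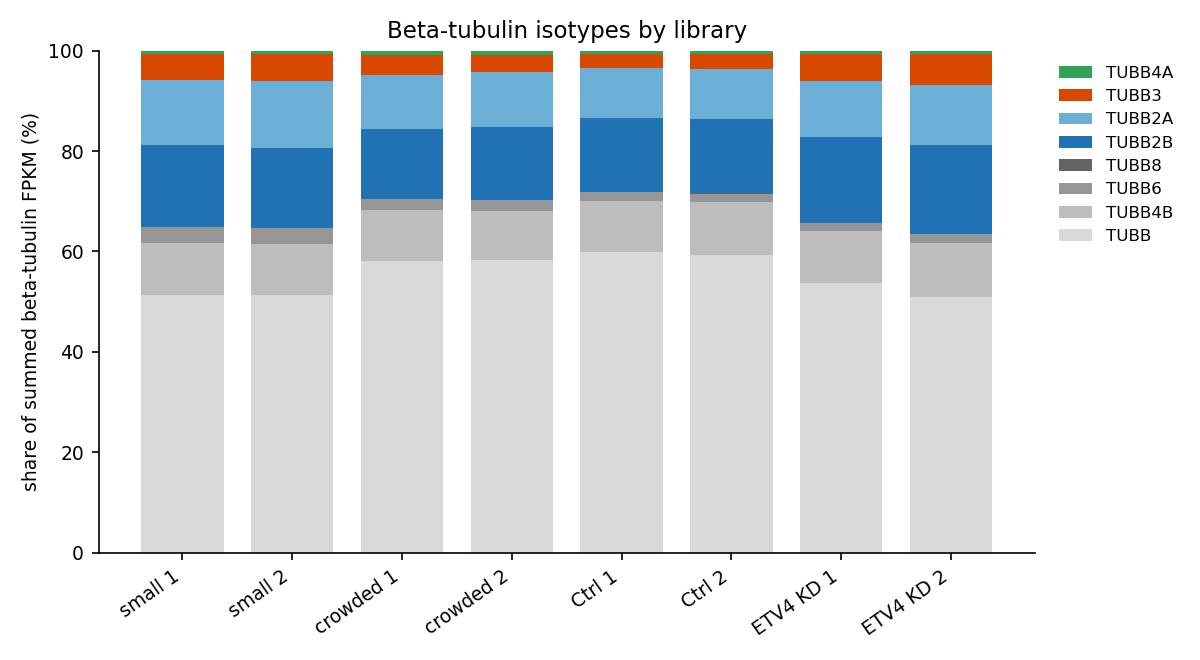
Share (percent, linear axis from 0) of each beta-tubulin gene in the summed beta-tubulin FPKM of each of the 8 libraries, with the 4 member isotypes in colour and the 4 others in grey. The TUBB3 band is wider in small (5.34%) than in crowded (3.71%) and wider in ETV4 KD (5.75%) than in Ctrl (2.87%), and the TUBB band changes the opposite way.

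TUBA1A, the main alpha-tubulin of developing neurons, lies at chr12:49578469-49582863 on the minus strand. It was at 197 and 196 FPKM in small and at 168 and 150 in crowded. Crowded hESCs had less of it, with a log2 fold change of −0.36 ± 0.061 (adjusted p = 1.32e-04), within the fold threshold. In the knockdown experiment it was at 154 and 164 FPKM in Ctrl and at 170 and 178 in ETV4 KD (0.13 ± 0.077, adjusted p = 0.259), so the groups did not overlap but the test was not passed. TUBA1A made up 13.4% ± 0.0094 of the summed alpha-tubulin FPKM in small and 11.8% ± 0.37 in crowded, and 12.1% ± 0.0093 in Ctrl and 12.0% ± 0.12 in ETV4 KD. TUBA1B, a general alpha-tubulin, took most of the remainder, 69.7% to 71.3% as group means.

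MAP1A and MAP1B encode the large precursor proteins of the MAP1 family, MAP1B being the earlier form in growing axons and MAP1A the form of mature neurons. MAP1A (chr15:43803156-43823818, plus strand) was sparse, at 0.849 and 0.813 FPKM in small and at 0.501 and 0.383 in crowded, from 282 to 578 reads. It was 1.96-fold lower after crowding, a log2 fold change of −0.97 ± 0.14 (adjusted p = 2.29e-05). In the knockdown experiment MAP1A was at 0.306 and 0.277 FPKM in Ctrl and at 0.583 and 0.886 in ETV4 KD. The 2 knockdown libraries differed from each other more than those of any other group, yet both lay above both Ctrl libraries, a log2 fold change of 1.34 ± 0.23 (adjusted p = 0.00727), or 2.53-fold. Left-out libraries moved that value between 0.97 and 1.64. It was the largest rise among the 10 genes.

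MAP1B (chr5:71403061-71505392, plus strand) was far more abundant than MAP1A, at 18.3 and 18.6 FPKM in small and at 14.0 and 14.1 in crowded. The replicates were close, and the log2 fold change of −0.45 ± 0.055 (adjusted p = 2.12e-06) stayed within the fold threshold. MAP1B was at 13.8 and 11.8 FPKM in Ctrl and at 23.3 and 22.6 in ETV4 KD. This was an upregulation of 1.80-fold, a log2 fold change of 0.85 ± 0.092 (adjusted p = 0.00123).

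MAP2, the dendritic microtubule-associated protein, spans 310101 bases at chr2:210288771-210598871 on the plus strand and is transcribed into isoforms of very different length. Its level was 0.767 and 0.575 FPKM in small and 0.393 and 0.341 in crowded, from 180 to 334 reads. MAP2 was 1.83-fold lower in crowded hESCs, a log2 fold change of −0.87 ± 0.18 (adjusted p = 5.16e-04). With limma on log2(FPKM + 0.5) the call was lost (−0.43, adjusted p = 0.0507, with 1.53e-06 to 0.0552 over all settings). In the knockdown experiment MAP2 was at 0.3326 and 0.367 FPKM in Ctrl and at 0.564 and 0.615 in ETV4 KD, from 164 to 246 reads. The FPKM ratio of the means was 1.68, while the fold from the read counts was 1.38 (log2 fold change 0.47 ± 0.18, adjusted p = 0.105), which was not past the test.

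The gap between these MAP2 values lay in how many reads stood behind 1 FPKM, a quantity that grows with the transcript length the quantification assigns to a gene. Expressed as CPM (counts scaled to the library total) per FPKM, it was 10.2 and 8.56 for MAP2 in Ctrl and 7.26 and 7.58 in ETV4 KD. In the crowding experiment it was 7.94 and 9.70 in small and 9.42 and 8.45 in crowded, without separation of the groups. The other long genes hardly varied on this measure, from 9.82 to 10.5 for DCX, 11.1 to 11.9 for MAP1A and 12.8 to 13.6 for MAP1B over the 8 libraries. The library that was lowest for each of these 3 genes was ETV4 KD 1. Whether the mixture of MAP2 isoforms differed was not tested, since the tables give 1 value for a gene.

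**Figure D4:**
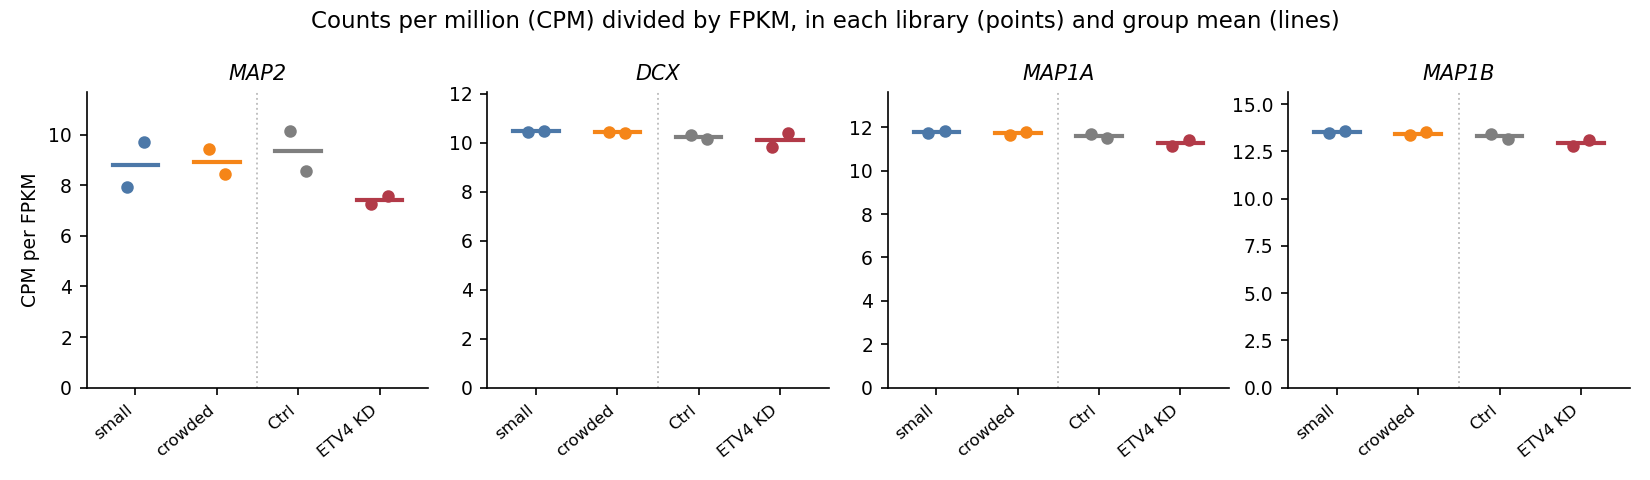
CPM divided by FPKM (linear axes from 0) for MAP2 and for 3 other long genes in each library; points are libraries and lines are means of the 2 libraries of a group. MAP2 varies between 7.26 and 10.2 and is lowest in the ETV4 KD libraries, while DCX, MAP1A and MAP1B stay within narrow ranges.

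DCX, a microtubule-binding protein of migrating young neurons, lies at chrX:110537007-110655657 on the minus strand. It was at 0.602 and 0.546 FPKM in small and at 0.758 and 0.800 in crowded, a log2 fold change of 0.39 ± 0.14 (adjusted p = 0.0272) within the fold threshold. In Ctrl it stood higher, at 1.69 and 1.41 FPKM from 958 and 749 reads, and in ETV4 KD it was at 0.455 and 0.339 from 253 and 186 reads. DCX was thus 3.86-fold lower after the knockdown, a log2 fold change of −1.95 ± 0.17 (adjusted p = 5.29e-04), the largest change of the 10 genes in either experiment. Its direction was opposite to that of TUBB3 in both experiments.

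STMN1, the tubulin-sequestering protein, lies at chr1:26210672-26233482 on the minus strand and was about as abundant as the main tubulins of the set. It was at 206 and 200 FPKM in small and at 245 and 264 in crowded, a log2 fold change of 0.29 ± 0.052 (adjusted p = 1.98e-04) within the fold threshold. In the knockdown experiment it was at 268 and 299 FPKM in Ctrl and at 240 and 239 in ETV4 KD, a log2 fold change of −0.24 ± 0.075 (adjusted p = 0.0537), which missed the adjusted p. Over the other settings that p ranged from 3.98e-04 to 0.488, and it was under 0.05 with the DESeq2 Wald test (0.0379) and without ETV4 KD replicate 2 (0.0396), with the change within the fold threshold throughout. With DCX, STMN1 was thus higher in crowded hESCs and had lower values after ETV4 KD.

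Ordered by mean FPKM in the small libraries, TUBB2B (337) and TUBB2A (273) led, followed by STMN1 (203), TUBA1A (196), TUBB3 (111), MAP1B (18.4), TUBB4A (12.2), MAP1A (0.831), MAP2 (0.671) and DCX (0.574). Neighbours in this order differed by more than their replicate spread except MAP2 and DCX, whose libraries overlapped. In the Ctrl libraries STMN1 (284 ± 21.9) stood above TUBB2B (269 ± 8.50) with overlapping libraries, and DCX (1.55) stood above MAP2 (0.350) and MAP1A (0.291). The summed FPKM of the 10 genes was 1152 to 1155 in small and 997 to 1020 in crowded, and 937 to 1006 in Ctrl and 1003 to 1077 in ETV4 KD.

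The 2 experiments share no library, so the difference between their responses was tested directly on the raw counts of all 8 libraries. Over the 17790 genes tested, 19.7% responded more positively to ETV4 KD than to crowding and 18.8% more negatively, 38.5% in all at an adjusted p below 0.05. All 10 genes passed this test, 7 more positive after ETV4 KD and 3 more negative. The difference on the log2 scale was largest for DCX (−2.33 ± 0.21, adjusted p = 9.59e-06) and MAP1A (2.31 ± 0.29, adjusted p = 1.17e-04). It was 1.59 ± 0.17 for TUBB3 (adjusted p = 6.25e-05), 1.34 ± 0.26 for MAP2 (adjusted p = 0.00151) and 1.30 ± 0.11 for MAP1B (adjusted p = 5.17e-06). The other tubulins had smaller differences, from −0.44 for TUBB4A to 0.58 for TUBB2A, and STMN1 had −0.52. The log2 fold changes had opposite signs in the 2 experiments for 9 of the 10 genes, TUBB4A being the exception, beside 58.3% of the 17206 genes tested in both. ETV4 itself had a negative log2 fold change in both.

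The other genes of the microtubule system were read from 3 further lists, beside the 16.1% of all genes called after crowding and the 13.0% called after ETV4 KD. Of 13 other tubulin genes tested, crowding lowered TUBB6, a broadly expressed isotype (64.9 to 41.4 FPKM as group means, log2 fold change −0.71 ± 0.063, adjusted p = 2.35e-08), and raised TUBA3D. TUBA3D falls outside the naming rule because it was below 0.2 FPKM as a group mean. It was named after its values were seen, is uncertain because of near-identical copies, and was not called by DESeq2. After ETV4 KD, 0 of the 13 were called by edgeR and 0 by DESeq2, and 1 was lower at an unadjusted p under 0.05. At the group level, the median log2 fold change of the other tubulins was −0.15 after crowding and 0.02 after ETV4 KD.

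Of 32 other genes for microtubule-associated and related proteins tested, crowding raised 1 and lowered 1, while ETV4 KD raised 4 and lowered 1. DCLK1, a doublecortin-like kinase and relative of DCX, went from 8.03 to 20.3 FPKM after ETV4 KD (log2 fold change 1.32 ± 0.076, adjusted p = 1.60e-04), the opposite direction to DCX. MAPRE3, a plus-end binding protein, was higher after both crowding (0.69 ± 0.21, adjusted p = 0.0124) and ETV4 KD (0.86 ± 0.16, adjusted p = 0.00942). MAP7D2 was higher after ETV4 KD (0.79 ± 0.17, adjusted p = 0.0143), as was MAP6 (1.29 ± 0.29, adjusted p = 0.018), which is below 1 FPKM and was named after its values were seen. The genes that fell were CLIP2, a plus-end linker protein, after ETV4 KD (−0.56 ± 0.10, adjusted p = 0.00942) and MAP7D1 after crowding (−0.55 ± 0.072, adjusted p = 5.03e-06). The median of the list was −0.08 after crowding and 0.09 after ETV4 KD.

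Of 28 genes for tubulin folding, modification and severing, crowding raised 3 and lowered 1, and ETV4 KD raised 1 and lowered 2. TTLL1 and TTLL6, which add glutamate chains to the tubulin tails, were higher after crowding (log2 fold changes 0.97 ± 0.18 and 1.57 ± 0.17, adjusted p = 2.79e-04 and 3.68e-07). TTLL1 fell after ETV4 KD (−0.75 ± 0.16, adjusted p = 0.0167), as did VASH2, a tubulin carboxypeptidase (−0.57 ± 0.10, adjusted p = 0.00795). The remaining calls were TTLL3 and TTLL11, both below 1 FPKM and named after their values were seen. TTLL3 was higher after crowding (0.97), and TTLL11 was lower after crowding (−1.15, not called by DESeq2) and higher after ETV4 KD (1.40). The median of the list was −0.01 after crowding and −0.03 after ETV4 KD.

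Markers of neurons and of other cell types were read beside these genes, since hESC cultures can hold differentiating cells. Of 20 neuron markers, 15 were in each table, and their summed FPKM was 52.4 to 54.1 in small and 48.03 to 49.0 in crowded, and 48.5 to 49.2 in Ctrl and 47.1 to 49.1 in ETV4 KD. After crowding, 12 of the 15 had a log2 fold change below 0, beside 49.7% of all genes tested, with a median of −0.24. At an unadjusted p under 0.05 by edgeR, 6 were lower and 3 higher. Of all genes, 39.7% passed the stricter adjusted p after crowding, so such counts are descriptive. The calls were 3 higher and 1 lower, the largest being ELAVL3 (log2 fold change 2.17) and NHLH1 (1.51), both below 1 FPKM in every library, and NCAM1 (−0.64). The remaining higher call was NEFL, named after its values were seen, which went from 2.88 to 4.29 FPKM (0.51, adjusted p = 1.80e-04). The median after ETV4 KD was 0.12. After ETV4 KD, the synaptic vesicle genes SYN1 (0.72) and SYP (0.61) were higher and SYT1 (−0.72) was lower. The neuron marker with the highest mean was GAP43 in Ctrl (12.6 FPKM) and, in small, INA (10.9 FPKM, with GAP43 at 10.8), and neither was called. Of the 15 markers, 5 in the crowding table and 6 in the knockdown table were below 1 FPKM in every library. The remaining 5 of the 20 were not analysed here.

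Of 10 neuroectoderm markers, 8 were in the crowding table and 9 in the knockdown table. Among these, 6 and 7 were below 1 FPKM in every library. Their summed FPKM was 17.2 to 18.6 in small, 17.7 to 25.2 in crowded, 5.20 to 6.70 in Ctrl and 19.3 to 23.6 in ETV4 KD. OTX2 was the most abundant and rose from 2.66 to 17.6 FPKM after ETV4 KD (2.73), which made up most of the rise in that sum. The other 4 tested there were not called. SOX1 (2.27) and LHX2 (−1.55), called after crowding by edgeR but not by DESeq2, stayed below 0.2 FPKM. PAX6 was listed in the crowding table alone, at a mean of 0.021 FPKM in small. Of 12 symbols of mesendoderm markers, 7 and 6 were in the tables, with a summed FPKM of 4.49 to 4.81 in small, 1.05 to 1.24 in crowded, 2.28 to 3.40 in Ctrl and 1.54 to 2.25 in ETV4 KD. CER1 fell in both experiments (−3.53 and −1.09), FOXA2 fell after crowding (−2.85) and GATA4 rose after ETV4 KD (1.73), and only CER1 reached 1 FPKM.

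The hESC identity of the libraries was checked in the same way. POU5F1, the pluripotency factor also called OCT4, was the most abundant of 10 hESC markers, at 1135 and 1070 FPKM as means of small and crowded and at 1099 and 1347 in Ctrl and ETV4 KD. Their summed FPKM was 3422 to 3546 in small, 3477 to 3625 in crowded, 2793 to 3000 in Ctrl and 3057 to 3088 in ETV4 KD. After crowding, 0 of the 10 were called by edgeR and 0 by DESeq2. By edgeR, 7 had an unadjusted p under 0.05, beside 39.7% of all genes at the stricter adjusted p. ETV4 KD lowered DNMT3B (−0.82), TDGF1 (−0.82) and TERT (−0.61) and raised LIN28A (0.51). Of 15 genes of the cell cycle, whose summed FPKM was 971 to 987 in small, 1026 to 1052 in crowded, 1020 to 1048 in Ctrl and 939 to 998 in ETV4 KD, crowding raised BUB1 (0.71) and ETV4 KD lowered MKI67 (−0.52). The most abundant of them, CCNB1 and PCNA, were not called in either experiment. After ETV4 KD, 13 of the 15 had a log2 fold change below 0, beside 50.1% of all genes tested, with a median of −0.14. At an unadjusted p under 0.05 by edgeR, 6 were lower and 2 higher after ETV4 KD, and 3 were lower and 3 higher after crowding. By the stricter adjusted p, 21.5% of all genes differed after ETV4 KD and 39.7% after crowding. The part of these marker changes in the values of the 10 genes was not tested.

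The promoters of the 10 genes were also searched, because ETV4 belongs to the ETS family of factors, whose members bind a core of GGAA. RefSeq (GRCh38.p14) gives 20 promoter windows of 300 bases for them, each of which matched GRCh37 exactly at 1 place. The ETS-type motif CCGGAA, read on both strands, occurred in 0 of the 20 windows and in 17.3% of 35116 promoters of all genes, and the longer CCGGAAGT, which contains it, occurred in 0 of 20 and in 4.14%. Some windows of a gene overlap each other, and by gene CCGGAA occurred in 0 of 10, beside 20.1% of 27305 genes. No match says only that these letters are not in these windows, and other sites with the GGAA core were not searched.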

How the data were processed

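RNA of 8 H9 libraries was sequenced by the authors as stranded poly-A libraries with paired reads of 100 bases, trimmed with Trimmomatic, mapped to GRCh37 with HISAT2 2.1.0 and assembled to known transcripts with StringTie 2.1.3b, per the methods and the submitters' processing notes. The authors deposited, for each experiment, raw read counts of genes and their FPKM values, scaled by length and depth. Every listed gene has at least 1 read in each library of its table, so genes at 0 in a library are not seen. Whether counting used strand is not stated. The authors' fold changes and p-values, and 16 further per-sample columns, were not used. Columns of the crowding experiment were matched to the labels by name. Those of the knockdown experiment are headed Control and Test, and Control was taken as Ctrl. Test was taken as ETV4 KD, since its values are those headed shETV4 in the study's supplement.

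Counts were tested with edgeR 4.0.16 in R 4.3.3 (filterByExpr, TMM, robust quasi-likelihood test, 2 libraries against 2, no covariate), with Benjamini-Hochberg adjustment over all genes tested. The study's methods name DESeq2, which was run here (1.42.0) as an alternative with limma 3.58.1 on log2(FPKM + 0.5). A standard error is the size of the log2 fold change over the square root of its F statistic. The difference of responses was fitted to the counts of all 8 libraries. The scripts were tested on simulated data. Replicates varied beyond sampling noise (chi-square over its degrees of freedom, 5.51 to 21.9), and the biological coefficient of variation was 6.83% for crowding and 9.93% for ETV4 KD, so replicate spread, not counting error, limits most values.

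Named were the 10 genes and ETV4, called genes of the other microtubule lists at 1 FPKM or more, and, from marker and cell cycle lists, the most abundant gene and up to 3 called genes with the largest change in each experiment. The members and lists were chosen with earlier results of these data known. Positions and sequences come from GENCODE on GRCh37, aligned with Biopython, and promoters from RefSeq. Alternatives were DESeq2's size factors and Wald test, no low-count filter, the replicate number as a block, an absolute log2 fold change over 1, limma with pseudocounts of 0.1, 0.5 and 1 or without a minimum of 0.5 FPKM, and each library left out.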

Additional observations from a re-analysis of the deposited data

Results flagged for a closer look

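Each of the 10 genes responded differently to ETV4 KD and to crowding by a direct test of the difference (edgeR's quasi-likelihood test on 8 libraries, adjusted over 17790 genes, of which 38.5% passed). The log2 response to ETV4 KD minus that to crowding was 1.59 for TUBB3, 0.58 for TUBB2A, 0.48 for TUBB2B, −0.44 for TUBB4A and 0.49 for TUBA1A. It was 2.31 for MAP1A, 1.30 for MAP1B, 1.34 for MAP2, −2.33 for DCX and −0.52 for STMN1. The adjusted p ranged from 5.17e-06 for MAP1B to 0.00622 for TUBB4A. The difference kept its sign in 120 of 120 refits of the 10 genes under the alternatives. These refits reuse the same 8 libraries and are not independent of each other. With all libraries kept, all 10 genes also passed the test with DESeq2's size factors, its Wald test, no low-count filter and the replicate block.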

How the results depend on the processing

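After crowding, 2851 genes were called, against 1135 at an absolute log2 fold change over 1, 1717 with limma on log2(FPKM + 0.5), 1256 with a pseudocount of 1 and 1839 with limma on all genes. After ETV4 KD, 2321 were called, against 761 at the stricter fold, 1325 with a pseudocount of 1 and 1502 with limma on all genes. Leaving out 1 library gave 2407 to 3408 calls for crowding, 1587 (without Ctrl replicate 1) to 3390 (without ETV4 KD replicate 1) for ETV4 KD and 4862 to 8230 for the difference of responses. Same-numbered libraries of different groups did not deviate together (correlations −0.042 and 0.085), and the replicate block gave 2874, 2901 and 8008 calls against 2851, 2321 and 6847, with 3 and 4 of the 10 genes past both thresholds as before, but 7 of 10 in place of 4 past the adjusted p alone after ETV4 KD, where TUBB2B (0.0343), TUBA1A (0.044) and STMN1 (3.98e-04) were added.

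At the single genes, an absolute log2 fold change over 1 left MAP1A and DCX called after ETV4 KD and 0 of the 10 after crowding. MAP2 after crowding was not called by limma with a pseudocount of 0.5 (−0.43, adjusted p = 0.0507) or 1 (−0.29) or on all genes, its adjusted p ranging from 1.53e-06 to 0.0552 over the alternatives. MAP1A dropped within the fold threshold with a pseudocount of 1 (−0.35 after crowding, 0.42 after ETV4 KD) and missed the adjusted p on all genes after ETV4 KD (adjusted p = 0.0505, range from 1.94e-06). MAP2 has a mean under 0.5 FPKM in the knockdown table, so limma with that minimum gave it no value. TUBB4A passed the fold threshold after crowding by limma with pseudocounts of 0.5 and 0.1, on all genes and without small replicate 1 (0.50 to 0.52). For TUBB4A after ETV4 KD, leaving out a library gave log2 fold changes of −0.00297 to 0.0237. No alternative changed the sign of any other fold change of the 10 genes. As shares of the member beta-tubulins only, TUBB2B moved by 2.06 percentage points after crowding. After ETV4 KD, TUBB2A, TUBB2B and TUBB4A so moved by −2.45, −3.36 and −0.289 points. Each was opposite in sign to the change of its share of all beta-tubulin. The member sum leaves out TUBB, TUBB4B, TUBB6 and TUBB8, and which of them turned the signs was not tested. The causes of the other changes were not tested either. For MAP1A, MAP2 and DCX, counts of at most 958 reads in a library limit precision.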
